A study of Mus musculus with 4 samples.

Results

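The genes of the ATF4 integrated stress response were read in the exon expression table of mouse embryonic fibroblasts (MEFs) with and without induction of Mitf, the master regulator of the melanocyte lineage. The 10 genes were chosen by name, with earlier results of these data known. They include Atf4, its partner and target Ddit3 (also called CHOP), the feedback gene Trib3, Chac1 and Sesn2. The others are the amino acid and one-carbon enzymes Asns, Phgdh, Psat1, Shmt2 and Mthfd2. Every exon that the GENCODE M21 annotation gives to one of these genes was used. All 10 genes were found, among 22835 genes with a level, and they held 93 exon identifiers at 91 distinct positions, of 234718 exon identifiers in the table.

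RNA-seq was done on 1 library per condition. The library called MEF came from wild-type MEFs at passage 3 without Dox. The libraries called Dox (-) and Dox (+) came from Mitf knock-in MEFs at passage 5, left untreated or given Dox for 6 days. The knock-in cells of both libraries carry the M2rtTA transactivator at the ROSA26 locus, a Dox-responsive copy of the M isoform of Mitf at the Col1a1 locus and an mCherry transgene. They descend from 1 correctly targeted embryonic stem cell clone and were grown from chimeric embryos, whose other cells come from the host blastocyst. All 3 cultures were kept in DMEM with serum, L-glutamine and non-essential amino acids, a supplement that usually holds asparagine, serine and glycine. The melanocyte library of the series was not analysed here. None of the libraries described was of wild-type MEFs with Dox, so the effect of Dox itself and that of Mitf cannot be told apart. Between MEF and Dox (-), the genotype, the passage and the embryo of origin cannot be told apart either.

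The values are RPKM, that is, reads on an exon divided by its length in kb and by the depth of its library. Multiplied by exon length, values below 200 reads returned whole reads, within 0.02, for 96.9% to 97.2% of the exons at depths of 45000000, 45000000 and 44000000 reads in MEF, Dox (-) and Dox (+). A count of 3 reads, taken as the floor, is 0.444 RPKM in MEF and Dox (-) and 0.455 RPKM in Dox (+) on an exon of 150 bp. Mitf, read to check the labels, stood at 1.52, 30.8 and 1544 RPKM in the same order. All 8 fibroblast markers were above 1 RPKM in each library, and they summed to 18501, 43986 and 11742 RPKM in MEF, Dox (-) and Dox (+). The 8 macrophage markers summed to 51.5 RPKM in MEF (4 of 8 above 1 RPKM), 13419 RPKM in Dox (-) (8 of 8) and 478 RPKM in Dox (+) (6 of 8), and the 8 melanocyte markers to 5.01, 13.7 and 271 RPKM. Tyrp1 and Dct were listed at 0 in MEF and Tyr in Dox (-). The 6 epithelial markers summed to 61.2, 9.54 and 33.6 RPKM, with Krt5 at 0 in MEF, and the 8 housekeeping genes to 22502, 18093 and 30292 RPKM. In these bulk libraries a smaller number of cells of a type and less RNA per cell cannot be told apart. Since each condition was sequenced as 1 library, no difference could be tested against replicates, and the intervals given cover counting error only.

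The integrated stress response begins with kinases that phosphorylate the translation factor eIF2, each activated by a different stress such as unfolded protein in the endoplasmic reticulum (ER), lack of amino acids, lack of haem or viral RNA. Bulk protein synthesis then falls while the Atf4 mRNA, through open reading frames upstream of its coding sequence, is translated more. ATF4 binds DNA with C/EBP partners and turns on genes for amino acid uptake and synthesis, tRNA charging and, in prolonged stress, cell death. Because ATF4 is set largely by translation, the level of the Atf4 mRNA is not a measure of the protein. In the melanocyte lineage ATF4 is known as a repressor of Mitf in starved melanoma cells.

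The DNA element bound by ATF4 with C/EBP factors has the core TGATGNAA, and it was searched on both strands of the RefSeq promoters (GRCm38.p6), which run from 250 bases before to 50 bases after the start of each gene. All 10 genes had a promoter there, in 11 entries, and 3 of the 10 held the core, which was present in 3.97% of all 32851 promoters. The stretches that hold it are shown 5′ to 3′ on the strand of the gene, with the match in capitals, since this core is the element that ATF4 is known to bind.
Chac1, chr2:119351024-119351081 (+), core at -193 on the opposite strand: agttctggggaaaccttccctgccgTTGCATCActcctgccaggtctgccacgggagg
Trib3, chr2:152344029-152344056 (-), core at 15 after the start on the opposite strand: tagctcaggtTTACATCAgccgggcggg
Asns, chr6:7693215-7693242 (-), core at -23 on the same strand: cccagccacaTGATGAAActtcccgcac
The Chac1 match is also the only one of the form TGATGCAA, which 0.895% of promoters held. The Asns stretch lies within one of the noncoding first exons that GENCODE gives to that gene, the one of 146 bp. Of the other motifs, CCAAT was found in 7 of the 10 (37.4% of promoters), CATGTG in Atf4 and Asns (14.2%), and TGACGTCA (1.79%) and CACGTG (7.15%) in none. The CATGTG match of Asns overlaps its TGATGNAA match. A match is a description of letters in this window, and other parts of these genes, introns included, were not searched.

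Across the 3 libraries, the response genes were lowest in the untreated knock-in MEFs. By the level used for calls, the highest exon RPKM of the gene, 9 of the 10 had their lowest level in Dox (-), a pattern that 35.6% of 13587 genes above 10 RPKM had. Sesn2 was the exception and was lowest in MEF. Trib3, Asns, Phgdh and Shmt2 were more than 2-fold lower in Dox (-) than in both other libraries, as were 1.67% of all genes. The count of 9 was the same with the whole-transcript level and with the last exon, by which 37.3% and 35.3% of all genes were lowest in Dox (-).

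**Figure D1:**
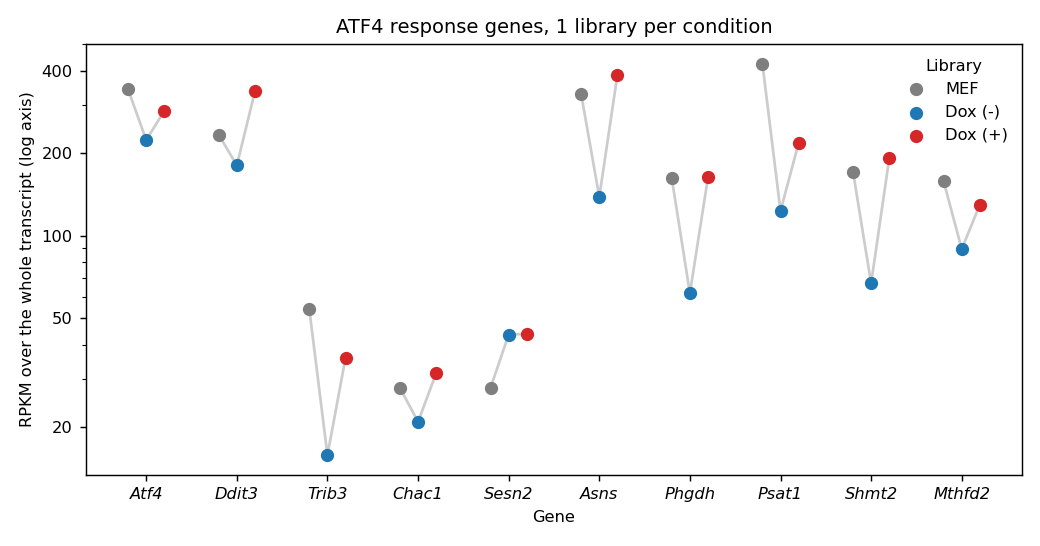
RPKM over the whole transcript (log axis) of each of the 10 genes in MEF (grey), Dox (-) (blue) and Dox (+) (red), with 1 library per condition and no error bars. The blue point is the lowest of the 3 for every gene but Sesn2, and for Asns it is at 139 RPKM against 329 and 387 RPKM.

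Levels of different genes are set side by side below as whole-transcript RPKM, the mean over the listed exons of 1 transcript weighted by length, since the highest exon is often a very short one that any overlapping read inflates. Among the transcription factors and regulators, Atf4 on chromosome 15 (80255184 to 80257541, plus strand, mm10) stood at 342 RPKM in MEF, 224 in Dox (-) and 286 in Dox (+). It was thus the most abundant of the 10 mRNAs in Dox (-), and its change was one of the smallest, 1.28-fold from Dox (-) to Dox (+). Its last exon, which holds most of the coding sequence, had 505, 317 and 389 RPKM, a rise of 1.23-fold from Dox (-) to Dox (+) with a 95% counting interval of 1.20 to 1.25. Reads on that exon did not come out whole with its GENCODE length, so this interval rests on rounded reads. The noncoding first exon rose 1.58-fold, from 444 to 684 reads.

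Ddit3, a C/EBP-related factor that ATF4 induces and that favours cell death in prolonged ER stress, lies on chromosome 10 (127290774 to 127296288, plus strand). Its whole-transcript level was 234 RPKM in MEF, 181 in Dox (-) and 337 in Dox (+). Dox (+) was the highest of the 3 and MEF lay between. The rise from Dox (-) to Dox (+) was 1.87-fold and was nearly the same on all 6 exon positions, from 1.79-fold to 1.93-fold. The first exon overlaps Gm4189 and the last overlaps Mars, and the rise was 1.83-fold (1.73 to 1.94) on the third exon of the transcript, which overlaps no other gene.

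Trib3, a pseudokinase that ATF4 and CHOP induce and that restrains them in return, is on chromosome 2 (152337422 to 152344032, minus strand). It had 53.9 RPKM in MEF, 15.8 in Dox (-) and 36.0 in Dox (+). The Dox (-) value was 3.41-fold below MEF, and Dox (+) lay between the other libraries. On its last exon, the best covered, 4296 reads in MEF stood against 1212 in Dox (-) and 2638 in Dox (+). The rise from Dox (-) to Dox (+) there was 2.23-fold, with a counting interval of 2.08 to 2.38, and all 4 exons rose more than 2-fold.

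Chac1, an enzyme that breaks down glutathione, is on the same chromosome (119351229 to 119354381, plus strand). Its levels of 27.9, 21.0 and 31.6 RPKM in MEF, Dox (-) and Dox (+) spanned a narrower range than those of Trib3. Dox (+) was 1.51-fold above Dox (-), and on the last exon 1.42-fold (1.32 to 1.53). The highest exon of Chac1 is only 36 bp long, with 171, 153 and 279 reads, and gave a larger rise of 1.87-fold (1.53 to 2.29).

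Sesn2, which restrains mTORC1 when leucine is short and is induced by ATF4 and by p53, is on chromosome 4 (132492032 to 132510501, minus strand). It behaved unlike the other 9. Its whole-transcript level was 27.9 RPKM in MEF, 43.6 in Dox (-) and 43.9 in Dox (+), so that both knock-in libraries were above MEF and hardly differed from each other. Between Dox (-) and Dox (+) its exons went both ways. The last exon fell, from 4088 to 3521 reads (0.881-fold, 0.842 to 0.922), while the other 9 were higher in Dox (+), with intervals above 1 for 5 of them. All 10 exons were higher in Dox (-) than in MEF, by 1.33-fold to 5.75-fold, the largest of these on the first exon with only 4 and 23 reads.

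Among the enzymes of amino acid synthesis, Asns and Phgdh rose most from Dox (-) to Dox (+). By the whole-transcript level they came after Shmt2 among the 10 genes. Asns, which makes asparagine from aspartate and glutamine, is on chromosome 6 (7675169 to 7693254, minus strand). Its whole-transcript level was 329 RPKM in MEF, 139 in Dox (-) and 387 in Dox (+). Dox (-) was thus 2.37-fold below MEF, and Dox (+) 2.79-fold above Dox (-) and 1.18-fold above MEF. On each of its 19 exon positions Dox (+) was above Dox (-) by more than 2-fold. The size of the rise depended on the position in the transcript. The 5 alternative noncoding first exons, which had nearly equal reads (266 to 275 in MEF, 160 to 167 in Dox (-) and 694 to 716 in Dox (+)), rose more than 4-fold, while the last exon rose 2.26-fold (2.14 to 2.39), from 1818 to 4023 reads. Against MEF, with 4308 reads, the last exon of Dox (+) was 1.05-fold lower.

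Serine is made from a glycolytic intermediate by Phgdh, Psat1 and Psph in turn. Phgdh, on chromosome 3 (98313170 to 98339990, minus strand), encodes the first enzyme and had 162 RPKM in MEF, 61.8 in Dox (-) and 164 in Dox (+). MEF and Dox (+) were nearly equal, and Dox (-) was 2.63-fold below MEF. The last exon rose from 1058 to 2559 reads, 2.47-fold (2.30 to 2.66), close to the 2.52-fold of the first exon. Of its 14 exon positions, 13 rose more than 2-fold. The remaining exon of 66 bp had 18, 28 and 28 reads and did not follow the others. A processed pseudogene of Phgdh lies elsewhere in the genome, and how the aligner shared reads between the copies is not given in the sources used here.

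Psat1, the second enzyme, on chromosome 19 (15904678 to 15947337, minus strand), had the largest gap between Dox (-) and MEF over the whole transcript. By the highest exon its gap of 3.37-fold was below those of Trib3 (3.54-fold) and Phgdh (3.53-fold). The whole-transcript level of Psat1, 426 RPKM in MEF and the highest of the 10 genes there, stood against 123 RPKM in Dox (-) and 219 in Dox (+). Dox (-) was 3.45-fold below MEF and Dox (+) still 1.95-fold below it. All 12 positions were lower in both knock-in libraries than in MEF. From Dox (-) to Dox (+) they rose by 1.59-fold to 2.08-fold, and the last exon, with 21571, 5766 and 8969 reads in MEF, Dox (-) and Dox (+), by 1.59-fold (1.54 to 1.64).

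The mitochondrial folate enzymes take serine further into one-carbon units. Shmt2, which splits serine into glycine and a one-carbon unit, is on chromosome 10 (127517123 to 127522444, minus strand) and had 172 RPKM in MEF, 67.1 in Dox (-) and 192 in Dox (+). By this whole-transcript level, the rise of 2.86-fold from Dox (-) to Dox (+) was the largest of the 10 genes, followed by those of Asns and Phgdh. It was more than 2-fold on all 12 exon positions. The last exon, which overlaps Ndufa4l2, rose from 2085 to 4412 reads, and the exon before it, which overlaps no other gene, rose 2.72-fold (2.45 to 3.02). Of the exons of the Shmt2 transcript used, 10 of 12 were listed.

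Mthfd2, the next enzyme of that pathway, is on chromosome 6 (83305691 to 83325908, minus strand). Its levels were 158 RPKM in MEF, 89.5 in Dox (-) and 130 in Dox (+), so that Dox (+) lay between the other libraries. The rise was 1.45-fold both over the whole transcript and on the last exon (1.37 to 1.52), and 2.67-fold on the first exon, with 85 reads in Dox (-) and 222 in Dox (+).

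**Figure D2:**
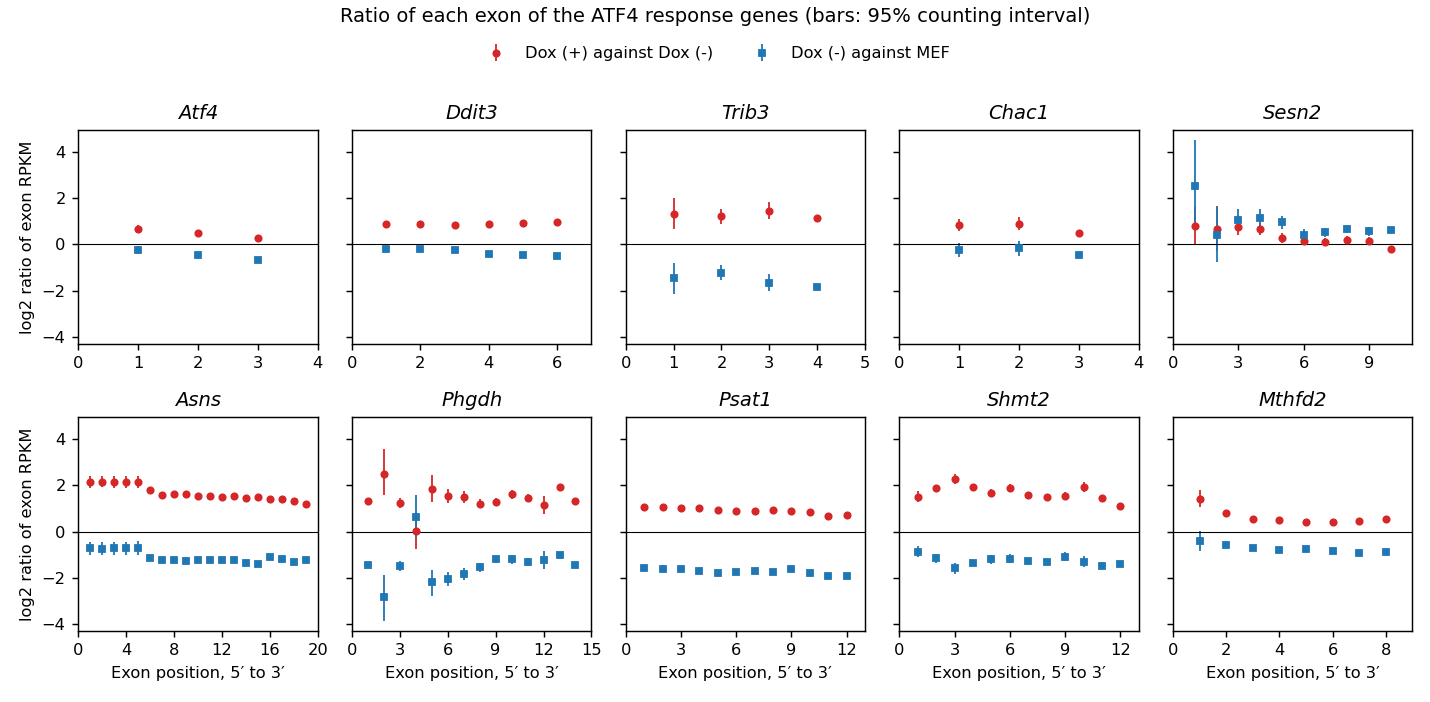
Ratio of RPKM on each distinct exon position of the 10 genes, from the 5′ to the 3′ end, on a log2 axis, for Dox (+) against Dox (-) (red circles) and Dox (-) against MEF (blue squares), with bars for the 95% counting interval. All but 1 of the 91 red points lie above 0 and 80 of the 91 blue points below it, and most genes show larger red ratios at the 5′ end.

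Taken by exon, 90 of the 91 positions were higher in Dox (+) than in Dox (-), beside 58.7% of 176130 exon positions of all genes with more than 3 reads in both libraries. Of the 91, 53 were more than 2-fold higher, beside 11.3% of all positions. The single lower position was the last exon of Sesn2. Between MEF and Dox (-), 80 of 91 positions were lower in Dox (-) (38.4% of 169242 positions of all genes), 54 of them more than 2-fold (5.92%), and 10 of the 11 higher ones were those of Sesn2. Exons of 1 gene come from the same RNA and are not replicates, and both comparisons share the Dox (-) library. Some positions overlap each other or hold nearly equal reads, as the noncoding first exons of Asns do, so the same reads may be counted more than once.

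Dox (+) was first compared with Dox (-), a comparison in which the effects of Dox and of Mitf cannot be told apart. No gene of the 10 passed a 4-fold difference of the highest exon, above 10 RPKM in at least 1 library, which 7.05% of 13307 genes passed. By single exons, the unit to which the study applied its 4-fold filter between MEFs and melanocytes, Asns, Phgdh and Shmt2 had at least 1 exon more than 4-fold higher in Dox (+), 3 of 10 beside 4.16% of all genes. These were 5 noncoding first exons of Asns and 1 exon each of the others. The 5 exons of Asns had nearly equal reads whatever their length. They may hold the same reads and do not count as separate observations. With a 2-fold difference, Trib3, Asns, Phgdh and Shmt2 were called higher in Dox (+), that is 4 of 10, where 10.8% of all genes were. None was called lower, where 11.1% of all genes were. The median log2 fold change of the 10 was 0.90, with a pseudocount of 1 RPKM, from 0.12 for Sesn2 to 1.57 for Shmt2, beside 0.23 over all genes. Of all genes, 13.2% were above this median.

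Untreated knock-in MEFs were next compared with wild-type MEFs. By the highest exon none of the 10 passed a 4-fold difference, as 9.47% of 13234 genes did. By single exons Phgdh did, with 3 exons more than 4-fold lower in Dox (-), as 2.49% of all genes had at least 1. With a 2-fold difference, Trib3, Asns, Phgdh, Psat1 and Shmt2 were called lower in Dox (-), 5 of 10 beside 7.93% of all genes, and none higher beside 17.3%. The median log2 fold change was -1.02, from -1.81 for Phgdh to 0.51 for Sesn2, against 0.01 over all genes, and 92.9% of all genes were above it.

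Dox (+) and MEF were close for these genes. No member was more than 2-fold higher (20.2% of 12941 genes were) or lower (8.98%), and none passed 4-fold (9.95% of genes in either direction). The median log2 fold change was -0.12, beside 0.27 over all genes. Its sign depended on the level used, since it was 0.09 over the whole transcript and -0.22 on the last exon. On the last exon Psat1 was 2.35-fold lower in Dox (+), the only member past 2-fold by that level, which 11.1% of all genes were.

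**Figure D3:**
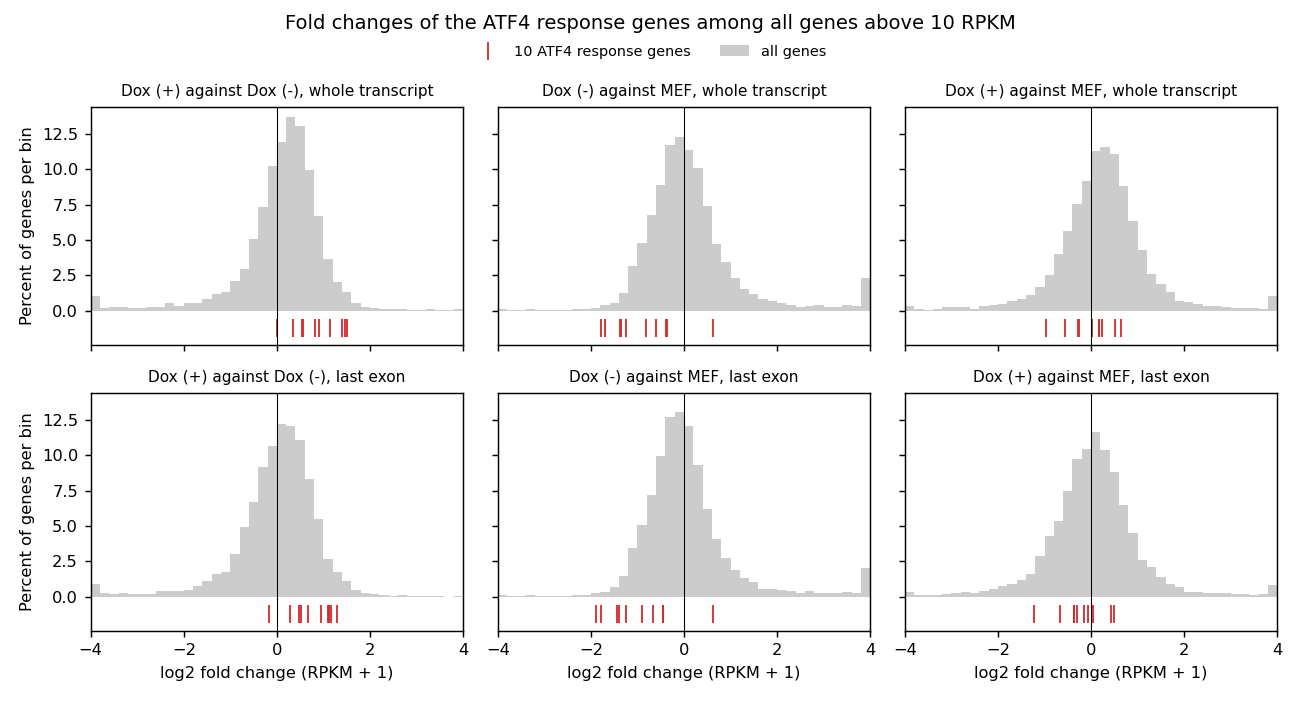
Percent of all genes above 10 RPKM (grey bars, bins of 0.2) by log2 fold change with a pseudocount of 1 RPKM, for the 3 comparisons in columns, from the whole transcript (top) and the last exon (bottom), with each of the 10 genes as a red tick and genes beyond 4 in the end bins. The ticks lie mostly right of the peak for Dox (+) against Dox (-), with a median of 0.86 (top) and 0.80 (bottom), left of it for Dox (-) against MEF, and spread over both sides of 0 for Dox (+) against MEF, where 2 of 10 are above the median of all genes at either level.

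Coverage along transcripts differed between the libraries. Over 5678 genes with at least 30 reads on both end exons, the ratio between the knock-in libraries, Dox (+) over Dox (-), had a log2 median of 0.49 on the first exon and 0.03 on the last, and the first exceeded the last in 88.5% of them. Of the 7 response genes with enough reads, 6 did the same, with medians of 1.06 and 0.67. For Asns the first exon reached 13.8% of the last in MEF, 19.7% in Dox (-) and 38.2% in Dox (+). For Mthfd2 these shares were 14.5%, 20.5% and 37.9%. For Ddit3 and Phgdh the ratios of Dox (+) over Dox (-) on the first and the last exon were nearly equal. For Dox (+) against MEF the log2 medians over 4952 genes were 0.74 on the first exon and 0.01 on the last. There the first exceeded the last in 89.7% of these genes and in all 8 response genes with enough reads. For Dox (-) against MEF it did so in 73.3% of 4933 genes and in 6 of 7 response genes. On the last exon alone the same genes passed 2-fold as by the highest exon, 4 higher in Dox (+) than in Dox (-) (7.86% of all genes) and 5 lower in Dox (-) than in MEF (7.72%).

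Other values moved along with the pattern. The macrophage markers were at their highest in the same Dox (-) library where the response genes were lowest, led by Lyz2 with 27.8, 10820 and 379 RPKM in MEF, Dox (-) and Dox (+). So was the sum of the fibroblast markers, made up mostly of collagens such as Col3a1, with 3320, 10487 and 847 RPKM. Col1a1, Col1a2, Pdgfra and Pdgfrb were also highest in Dox (-), but the other fibroblast markers were not. Thy1, with 726, 2014 and 3608 RPKM, and Prrx1, with 59.8, 336 and 474 RPKM, were highest in Dox (+). Twist1 was lowest in Dox (-), with 128, 79.7 and 89.9 RPKM. Some housekeeping genes followed the response genes, among them Rplp0, a ribosomal protein, with 4107, 1737 and 5008 RPKM, and Gapdh, with 3439, 2192 and 6004 RPKM, while Hprt, with 1136, 1048 and 946 RPKM, and Actb, with 4690, 5067 and 7118 RPKM, did not. The part of macrophage RNA, of collagen RNA, of coverage and of a shift shared with housekeeping genes in the response genes' result was not tested.

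The wider response was read from 8 lists with 138 genes, 133 of them above 10 RPKM in Dox (-) or Dox (+). With a 2-fold difference 28 of these (21.1%) were higher in Dox (+) and 6 (4.51%) lower, beside the 10.8% and 11.1% of all genes. From MEF to Dox (-), 15 of 133 (11.3%) were lower and 10 (7.52%) higher, beside 7.93% and 17.3% of all genes. Levels in the sentences on these lists are highest exon RPKM, in the order MEF, Dox (-) and Dox (+).

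The genes that act upstream of ATF4 went both ways. Of 18 genes for eIF2 kinases, eIF2 subunits, exchange factors, phosphatase subunits and regulators, 4 were past 2-fold upward from Dox (-) to Dox (+). Past 2-fold downward was 1, and of all genes 10.8% were past it upward and 11.1% downward. The median log2 fold change of the 18 was 0.34, beside 0.23 over all genes. Ppp1r15a, the subunit that directs dephosphorylation of eIF2 and is itself a target of the response, had 61.3, 39.1 and 100.3 RPKM. The eIF2B subunit Eif2b5 had 258, 129 and 290 RPKM. Eif2ak3, the kinase PERK that senses ER stress, went the other way with 74.8, 92.1 and 33.2 RPKM, and the adaptor Nck1 had 69.2, 53.5 and 36.5 RPKM.

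Other transcription factors and regulators of the response gave a median of 0.29 over 9 genes. Nfe2l2, the oxidative stress factor NRF2, was the only one past 2-fold upward, with 212, 225 and 589 RPKM. Atf5, a direct relative of Atf4, had 318, 209 and 315 RPKM and so shared the order of most response genes below the 2-fold line. Atf3 had 14.4, 22.4 and 12.2 RPKM. Cebpa was more than 2-fold lower in Dox (+), with 2.03, 12.7 and 6.06 RPKM.

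Amino acid transporters and glutathione genes were mixed, with a median of 0.25 over 18 genes. Slc7a3, a carrier of cationic amino acids, had 106, 19.0 and 57.1 RPKM. Gclm, a subunit of the enzyme that starts glutathione synthesis, had 154, 170 and 428 RPKM, and Gclc, its partner, also passed 2-fold. Over the whole transcript, however, Gclm had 17.4, 21.2 and 37.0 RPKM and stayed below 2-fold. Slc43a1 was lower in Dox (+), with 19.1, 23.0 and 6.73 RPKM. Cbs was past 2-fold downward by its highest exon, with 2.65, 14.8 and 1.18 RPKM, but over the whole transcript it was under 10 RPKM in each library, with 1.08, 0.481 and 0.435 RPKM, so that this call rests on 1 exon.

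Most enzymes that charge tRNA were lower in Dox (-) than in MEF and in Dox (+). Both comparisons share the Dox (-) library, so they are not separate observations. Of 20 cytosolic aminoacyl-tRNA synthetases, 19 were higher in Dox (+) than in Dox (-), 7 of them more than 2-fold and none lower by that margin, with a median of 0.78, while 62.6% of all genes had a log2 fold change above 0. All 20 were lower in Dox (-) than in MEF, where 50.6% of all genes were above 0, with a median of -0.71, and 5 of them passed 2-fold. Vars, for valine, had 265, 155 and 446 RPKM and Wars, for tryptophan, 134, 112 and 305 RPKM. Hars, for histidine, rose least among those higher in Dox (+), with 301, 249 and 326 RPKM, and Eprs, for glutamate and proline, was the exception with 829, 502 and 408 RPKM.

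Beyond the 10 genes, 19 enzymes of serine, glycine, proline and one-carbon metabolism had a median of 0.48, with 4 more than 2-fold higher in Dox (+) and none lower. Psph, the last step of serine synthesis, followed Phgdh and Psat1 with 229, 73.2 and 254 RPKM. Mthfd1l, which releases formate from mitochondria, had 139, 70.0 and 233 RPKM. Aldh1l1, a cytosolic folate enzyme, was at the lower end with 6.08, 38.6 and 24.1 RPKM.

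Among 19 other genes listed as ATF4-responsive, 6 were more than 2-fold higher in Dox (+) and 1 lower, with a median of 0.43. Eif4ebp1, a brake on cap-dependent translation, had 412, 203 and 722 RPKM, and the peptide hormone Adm2 15.4, 2.87 and 22.5 RPKM. Cdsn, which is among the 6, is known as an adhesion protein of the cornified skin and not as a stress gene. Sesn1, a relative of Sesn2 better known as a p53 target, fell most, with 34.4, 51.5 and 12.9 RPKM, and Herpud1, an ER stress protein, had 261, 267 and 173 RPKM.

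The ER chaperones and other genes of the ATF6 and XBP1 branches of the unfolded protein response stood apart from the 10 genes. None of 20 was more than 2-fold higher in Dox (+), 4 were higher at all, and the median was -0.39. Hsp90b1, an abundant ER chaperone, had 4031, 3255 and 1636 RPKM. Syvn1, a ubiquitin ligase of ER quality control, was the only gene past 2-fold, and only just, with 113, 263 and 131 RPKM. Over the whole transcript none of the 20 was past 2-fold in either direction. The sensors Atf6, with 45.8, 67.0 and 112 RPKM, and Ern1, with 9.80, 53.6 and 88.2 RPKM, were at the upper end of this list.

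The 10 mitochondrial stress genes were all higher in Dox (+) than in Dox (-) by the highest exon, and 9 of 10 over the whole transcript, beside the 62.6% of all genes by the highest exon. Their median was 0.84, and 3 of them passed 2-fold. Dele1, which carries mitochondrial stress to the eIF2 kinase HRI, had 49.0, 44.2 and 105 RPKM. The chaperonin Hspd1 had 371, 209 and 475 RPKM. Oma1, the protease that releases DELE1, had 31.7, 26.1 and 26.7 RPKM, and the unfoldase Clpx 107, 98.4 and 101 RPKM, which were the smallest changes.

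**Figure D4:**
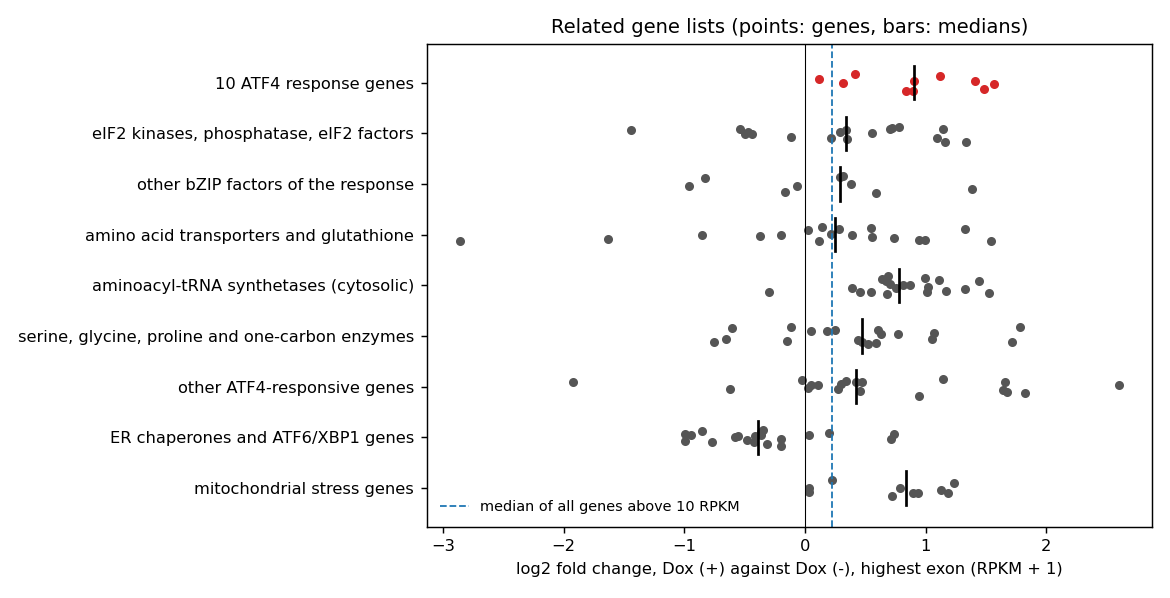
Log2 fold change of the highest exon from Dox (-) to Dox (+), with a pseudocount of 1 RPKM, for each gene (points) of the 10 ATF4 response genes (red) and of 8 related lists (grey), with bars for the list medians and a dashed line for the median of all genes above 10 RPKM, 0.23. The medians run from 0.90 for the 10 genes, 0.84 for mitochondrial stress genes and 0.78 for aminoacyl-tRNA synthetases down to -0.39 for the ER chaperones.

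The genes outside the group whose 2 log2 fold changes, Dox (-) against MEF and Dox (+) against Dox (-), lay nearest to the medians of the 10 were Vamp5 with 165, 80.8 and 153 RPKM, Zfp7 with 21.7, 10.1 and 19.6 RPKM, and Gm16409 with 845, 416 and 782 RPKM. In all, 279 genes lay within 0.25 of that point, where 13587 genes were above 10 RPKM in at least 1 library. The pattern of levels was thus not particular to the 10 genes. How many genes lie as near to other points was not counted.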

How the data were processed

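RNA-seq libraries were prepared with TruSeq v2 from poly(A) RNA, 1 per condition. The authors aligned reads to mm10, counted them per Ensembl exon and deposited RPKM values per exon. The submitters' processing notes name bcl2fastq 2.17.1.14, TopHat2 2.0.10 and bedtools. Of the deposited value columns, 3 were used by name and 1 whose name matched no library was left out, so melanocytes were not analysed here. Exons were assigned to genes with GENCODE M21, and 6586 identifiers had no match. Reads were recovered as RPKM times length times a whole-number depth, searched from 20 to 80 on the scale of RPKM. Exon ratios have exact conditional binomial intervals at 95%. How reads were counted by strand is not given in the sources used here, so overlapping genes may share reads. Nor is it given whether spliced reads were split before counting. Unsplit, a read can be counted on an exon that its transcript skips, and any overlapping read counts in full on a very short exon, which raises its RPKM.

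Gene level was the highest exon RPKM, as in the study's methods. Calls needed above 10 RPKM in at least 1 library and over 4-fold or 2-fold, without a pseudocount. Log2 fold changes used a pseudocount of 1 RPKM. The members, lists and markers were chosen with earlier results of these data known. Whole-transcript and last-exon levels, calls by single exons and the count of genes lowest in Dox (-) were added after the data were seen. Named genes are all 10 members, Mitf and the 3 nearest genes by likeness. From each list they are also the 2 highest and 2 lowest log2 fold changes from Dox (-) to Dox (+). Lyz2, the fibroblast markers, Rplp0, Gapdh, Hprt, Actb, Gclc and Cdsn were added after their values were seen. A gene that comes under this rule is not reported here. The recovery of depth, the highest-exon, whole-transcript and last-exon levels and the 2-fold calls were checked with simulated reads. The promoter search, exon intervals, gene lists, markers and nearest genes were not checked in this way. Python 3.11.15, pandas 2.3.3, NumPy 2.4.6, SciPy 1.17.1 and matplotlib 3.10.9 were used.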

Additional observations from a re-analysis of the deposited data

How the results depend on the processing

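With 1 library per condition no replicate could be left out. No paired analysis was possible because the comparisons come from no test. The comparison of melanocytes with MEF and its other settings were not run, since that library was not analysed here. Rescaling the libraries to a common median lowered the median log2 fold change of the 10 genes from Dox (-) to Dox (+) to 0.68, and that of Dox (+) against MEF to -0.38. The shift of the libraries on the log2 scale was -0.10 in MEF, -0.06 in Dox (-) and 0.17 in Dox (+). Against MEF the median of Dox (+) turned positive with the median exon, at 0.0871, and with the whole transcript, at 0.0867, and was -0.22 on the last exon, the latter 2 levels added after the data were seen. A 2-fold in place of a 4-fold difference raised the calls from 0 to 4 higher in Dox (+) than in Dox (-) and from 0 to 5 lower in Dox (-) than in MEF. Calls by at least 1 exon past 4-fold, added after the data were seen, raised them to 3 and 1. An 8-fold difference, expression thresholds of 1 or 30 RPKM, a pseudocount of 1, rescaling and the other exon choices left all 4-fold counts at 0. Of 80 alternative values of single genes per comparison, the direction was kept in 78 for Dox (+) against Dox (-), 80 for Dox (-) against MEF and 72 for Dox (+) against MEF. From Dox (-) to Dox (+) the exceptions were both Sesn2, at -0.10 after rescaling and -0.18 on the last exon. For Dox (+) against MEF the direction turned for Atf4 (0.03, median exon), Asns (-0.06 rescaled, -0.07 last exon), Phgdh (0.14 median exon, 0.01 whole transcript) and Shmt2 (-0.04 same exon, -0.17 rescaled, -0.31 last exon). The cause of these turns was not tested.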
